A study of Drosophila melanogaster with 9 samples.

Results

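The cytoplasmic ribosomal protein genes of Drosophila melanogaster were compared between larvae that carry 2, 1 or no mutant copies of Atg6. The genes were taken by name: every locus whose gene name begins with RpL, RpS or RpLP followed by a digit. This gave 91 of the 15809 loci in the deposited table, 54 of the large subunit and 37 of the small subunit, carrying 92 gene names because RpS14a and RpS14b share a locus. They were divided into 78 main copies (47 large, 31 small), which supply nearly all of the ribosomal protein RNA, and 13 second copies, which are paralogs or relatives of a main copy at a lower level than it. Of the 91 loci, 90 passed the filter on low values (at least 1 FPKM in at least 3 libraries), all 78 main copies among them, and RpS28a did not. The naming pattern misses sta (RpSA) and Rack1, other proteins of the small subunit, which are given apart.

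A ribosome is built from ribosomal RNA and a nearly fixed set of proteins, and each protein is needed once per subunit, apart from the paired proteins of the stalk. Flies that have a single working copy of many of these genes show the Minute phenotype of slow growth and short bristles, and the genes are known as a group whose RNA and translation follow growth signals such as the target of rapamycin (TOR) pathway. Several fly ribosomal proteins have a second gene that is known to be expressed mainly in the testis or ovary, and a few gene products that resemble ribosomal proteins act in the assembly of the large subunit and not in the finished ribosome.

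RNA came from whole wandering larvae of the third instar, raised on standard food at 25C, in a w118 genetic background shared by all 3 genotypes. The homozygotes (Atg6-/-) carry 2 mutant copies of Atg6, the heterozygotes (Atg6-/+) carry 1, and the wild type carries 0, with 3 libraries per genotype. The product of Atg6, known in mammals as Beclin, works with the lipid kinase Vps34 in autophagy and in membrane traffic. The sources used here do not give the sex of the larvae or the number pooled, nor whether the libraries of a genotype came from separate animals or cultures, so p-values measure only the spread between these libraries. In RNA from whole animals, fewer cells of a type and less RNA per cell cannot be told apart.

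Levels are in FPKM, sequenced fragments relative to transcript length and library size, which allows levels of different genes to be compared per length. FPKM does not keep the absolute depth, which is unknown; from the smallest steps between values, depth relative to wild-type library 1 ran from 0.785 to 1.27. Atg6 itself was at 0.0270, 0 and 0.0563 FPKM in the homozygotes, 7.58, 7.98 and 8.89 FPKM in the heterozygotes, and 16.1, 14.3 and 17.0 FPKM in the wild type, so that each library matched its label. Of the 15809 loci, 10887 were tested with limma on log2(FPKM + 1), and a locus is called where its Benjamini-Hochberg adjusted p over all tested loci is under 0.05. All log2 fold changes below are on that scale, which understates the change of weakly expressed genes. The 3 comparisons share libraries, so their results are not independent of each other.

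Ribosomal protein RNA was abundant in each library. The median main copy stood at 2232, 2139 and 2017 FPKM in the homozygotes, at 1653, 1554 and 1600 FPKM in the heterozygotes and at 1265, 1438 and 1270 FPKM in the wild type. Each homozygote library was above each heterozygote library, and each heterozygote library above each wild-type library. When all loci were ranked by level within a library, the median main copy lay between rank 68 and rank 117.5. Levels of the main copies spanned 14.3-fold in wild-type means, between RpL22 at 456 FPKM and RpL41 at 6525 FPKM, and 12.3-fold in homozygote means. The order of the main copies was nearly the same in both genotypes (Spearman's rho across the 78 genes 0.99, a description over genes that share the same libraries).

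**Figure D1:**
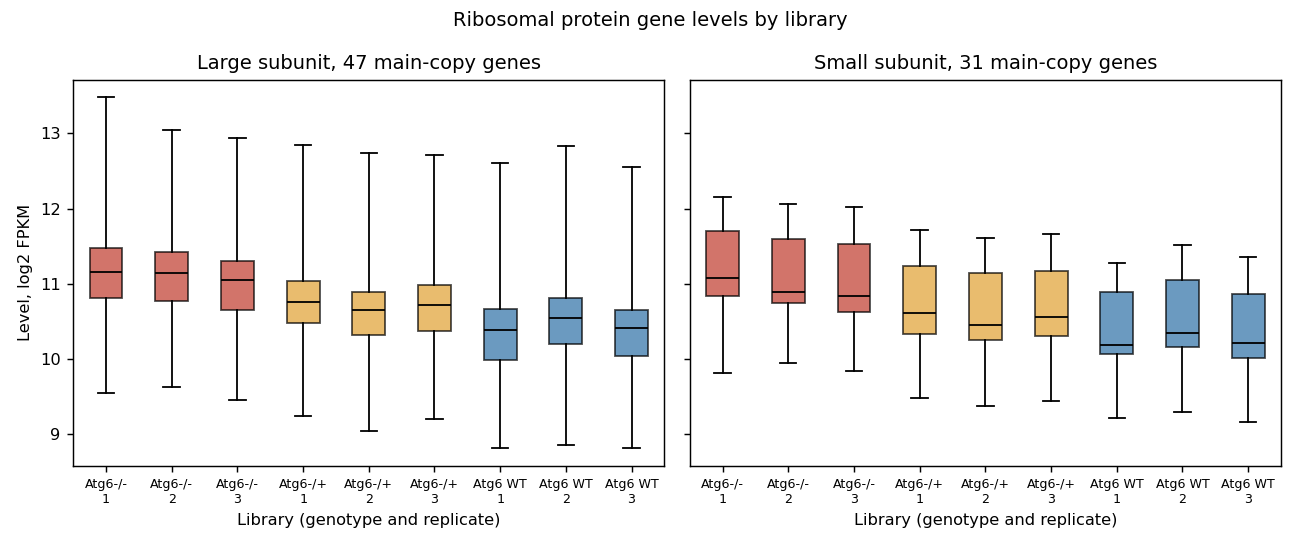
Levels of the ribosomal protein main copies in log2 FPKM (vertical axis) for each of the 9 libraries (horizontal axis), with 47 large-subunit genes on the left and 31 small-subunit genes on the right; boxes show quartiles over genes and whiskers the full range. In both panels the medians of the 3 Atg6-/- libraries lie highest and those of the 3 wild-type libraries lowest, with Atg6-/+ between them, while the boxes overlap.

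In homozygotes against the wild type, the main copies were higher as a block. Of 78 main copies, 77 were called higher and 0 lower, where 12.3% of all tested loci were called higher and 9.67% lower. Log2 fold changes of the main copies lay between 0.48 and 0.87 with a median of 0.68 and a standard deviation over genes of 0.076, while the median over all tested loci was 0.01. In linear means this is 1.40-fold to 1.83-fold. The 3 homozygote libraries were above the 3 wild-type libraries for all 78 main copies, against 19.5% of all tested loci. Over all 90 tested ribosomal protein loci, 80 were called higher and 1 lower, and the median was 0.67.

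These calls depend on how the libraries are scaled and on single libraries. With the library FPKM sum as the scale, 4 of the 90 loci (4.44%) were called higher, against 5.27% of all tested loci, at a median of 0.56. After quantile normalization 0 were called, against 9.80% of all tested loci, with 12 at an unadjusted limma p under 0.05 and a median of 0.24. Median-of-ratios scaling gave 80 calls (88.9%, against 13.1% of all tested loci) and upper-quartile scaling 78 (86.7%, against 8.55%). Leaving out wild-type library 3 left 29 calls (32.2%, against 5.41%) and leaving out wild-type library 1 left 53 (59.6%, against 7.24%). In each of the 9 fits that left out 1 library, the same 29 loci were called higher. Every main copy kept a positive log2 fold change under each scaling tried, the smallest being 0.0081 after quantile normalization.

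Genes of both subunits were higher. Of 47 large-subunit main copies, 46 were called higher, and their log2 fold changes had a median of 0.69 and a range of 0.48 to 0.87. Of 31 small-subunit main copies, all 31 were called higher, with a median of 0.66 and a range of 0.49 to 0.86. The mean log2 level of the large-subunit genes exceeded that of the small-subunit genes by 0.020 to 0.066 in the homozygote libraries, 0.036 to 0.064 in the heterozygote libraries and 0.0078 to 0.037 in the wild-type libraries. These ranges overlap between the genotypes.

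Among large-subunit genes, RpL21 had the highest fold change of the main copies. It stood at 3936, 3374 and 3242 FPKM in the homozygotes, 2397, 2355 and 2376 FPKM in the heterozygotes and 1818, 2072 and 1862 FPKM in the wild type. The genotypes did not overlap, and the heterozygote libraries were close together between the others. RpL21 had a log2 fold change of 0.87 in homozygotes against the wild type (SE 0.14, limma adjusted p 0.0058).

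RpS3, a small-subunit protein at the mRNA entry channel, followed at 2102, 1824 and 1779 FPKM in the homozygotes, 1272, 1213 and 1262 FPKM in the heterozygotes and 994, 1141 and 1013 FPKM in the wild type. Again the libraries of the 3 genotypes did not overlap. In homozygotes against the wild type this made a log2 fold change of 0.86 (SE 0.12, limma adjusted p 0.0042). RpS3A, another small-subunit protein and the only main copy on chromosome 4, had 2362, 2399 and 2085 FPKM in the homozygotes, 1572, 1402 and 1518 FPKM in the heterozygotes and 1259, 1400 and 1266 FPKM in the wild type, with a log2 fold change of 0.80 (SE 0.12, limma adjusted p 0.0058). For RpS3A the highest wild-type library lay just below the lowest heterozygote library.

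RpL41, the smallest ribosomal protein, had the highest level of all and was the exception to the calls. It had 11388, 8430 and 7818 FPKM in the homozygotes, 7339, 6856 and 6707 FPKM in the heterozygotes and 6252, 7298 and 6024 FPKM in the wild type. Homozygotes and wild type did not overlap, but homozygote library 1 lay far above the other homozygote libraries and wild-type library 2 among the heterozygotes. The log2 fold change in homozygotes against the wild type was 0.48 with an SE of 0.20, and the limma adjusted p of 0.106 missed the threshold. RpL40 also had one of the smaller changes (0.52, limma adjusted p 0.0264).

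By the mean over all 9 libraries the next most abundant genes were RpLP1, RpL23, RpS27A and RpS29, with homozygote means of 5337, 5085, 4335 and 4065 FPKM and wild-type means of 3455, 3007, 2613 and 2639 FPKM, in that order. RpLP1 belongs to the stalk, a flexible arm of the large subunit made of RpLP0, RpLP1 and RpLP2 that recruits the factors of translation elongation. RpLP2 gave the tightest values of the 3 stalk genes, with 2968, 2979 and 2904 FPKM in the homozygotes, 2192, 2182 and 2204 FPKM in the heterozygotes and 1661, 1799 and 1703 FPKM in the wild type. These are 3 separate levels, each spread over a small part of the distance to the next. All 3 stalk genes were called higher in homozygotes against the wild type, with log2 fold changes of 0.67 for RpLP0 (limma adjusted p 0.0153), 0.63 for RpLP1 (0.0287) and 0.78 for RpLP2 (0.0045).

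Some ribosomal proteins are made as fusions, RpL40 and RpS27A with ubiquitin and RpS30 with a ubiquitin-like protein. RpS27A had 4559, 4284 and 4161 FPKM in the homozygotes, 3370, 3135 and 3237 FPKM in the heterozygotes and 2471, 2819 and 2550 FPKM in the wild type; its locus also carries the name Ip259, so that reads of both genes are in these values. RpS30 had 3215, 3109 and 2891 FPKM in the homozygotes, 2310, 2190 and 2202 FPKM in the heterozygotes and 1927, 1976 and 1803 FPKM in the wild type. RpL40 had 2241, 2266 and 2023 FPKM in the homozygotes, 1746, 1669 and 1691 FPKM in the heterozygotes and 1474, 1657 and 1417 FPKM in the wild type. All 3 were separate between the genotypes and were called higher in homozygotes against the wild type, with log2 fold changes of 0.73, 0.69 and 0.52 (limma adjusted p 0.0102, 0.0091 and 0.0264).

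In heterozygotes against the wild type, values of the main copies lay above the wild type by a smaller amount, and none was called. All 78 main copies had a positive log2 fold change, between 0.10 and 0.47, with a median of 0.27, where the median over all tested loci was -0.00050. None of the 90 ribosomal protein loci passed the limma threshold, where 0.147% of all tested loci were called higher. An unadjusted limma p under 0.05 was found for 26 of the 90 that were higher and 0 that were lower. Over all 10887 tested loci, 369 were higher and 253 lower at that unadjusted p. The heterozygote libraries lay above the wild-type libraries without overlap for 68 of the 78 main copies, against 8.25% of all tested loci, and below them for 0, against 6.18%. The sign depended on the scaling: after quantile normalization the median of the 90 loci was -0.0049, with 42 of 90 positive, and with the FPKM sum as the scale it was 0.060.

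The highest values in that comparison belonged to large-subunit genes. RpL34b had 938, 808 and 878 FPKM in the heterozygotes and 601, 662 and 623 FPKM in the wild type, with a log2 fold change of 0.47 (SE 0.11, limma adjusted p 0.353). RpL23A, which lies at the exit of the peptide tunnel, had 0.44 (limma adjusted p 0.525; its locus also carries the RNA gene Uhg7), and RpL13 had 0.42 (limma adjusted p 0.620). The lowest among members with a mean of at least 100 FPKM were RpL24-like at 0.04, RpL41 at 0.10 and RpS16 at 0.13. These 3 turned negative under the FPKM-sum scalings and after quantile normalization.

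In homozygotes against heterozygotes, 15 of the 90 ribosomal protein loci were called higher and 0 lower, against 6.27% and 1.42% of all tested loci (7.7% in either direction). The homozygote libraries were above the heterozygote libraries for all 78 main copies, against 17.5% of all tested loci, and the median log2 fold change of the main copies was 0.39 (range 0.23 to 0.61). The called main copies were RpL5, RpL10Ab, RpL15, RpL21, RpL38 and RpL39 of the large subunit and RpS3, RpS3A, RpS5a, RpS9, RpS14a/RpS14b and RpS16 of the small subunit. RpS3A at 0.61 (limma adjusted p 0.0266) and RpS3 at 0.60 (0.0264) led the main copies, while RpL34b and RpL18 at 0.23 and RpL13 at 0.24 came last and were not called. The count fell to 0 of 90 in the fit of these genotypes alone, on leaving out any single heterozygote library, with the FPKM sum as the scale and after quantile normalization. It was 1 without homozygote library 3, 2 without wild-type library 3, 5 without homozygote library 1 or 2, and 6 without wild-type library 1. Over all of these fits, 2.37 to 5.71% of all tested loci were called higher.

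Across the 3 genotypes the means of all 78 main copies were highest in homozygotes and lowest in the wild type, an order held by 31.1% of all tested loci. All 9 libraries followed that order without overlap for 68 of the 78 main copies, 41 of 47 in the large and 27 of 31 in the small subunit, against 2.87% of all tested loci. Those that did not included RpL3, RpL9, RpL10Ab, RpL11, RpL39 and RpL41 of the large subunit and RpS15Aa, RpS16 and RpS25 of the small subunit. Since the comparisons share libraries, the order is given as a description.

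**Figure D2:**
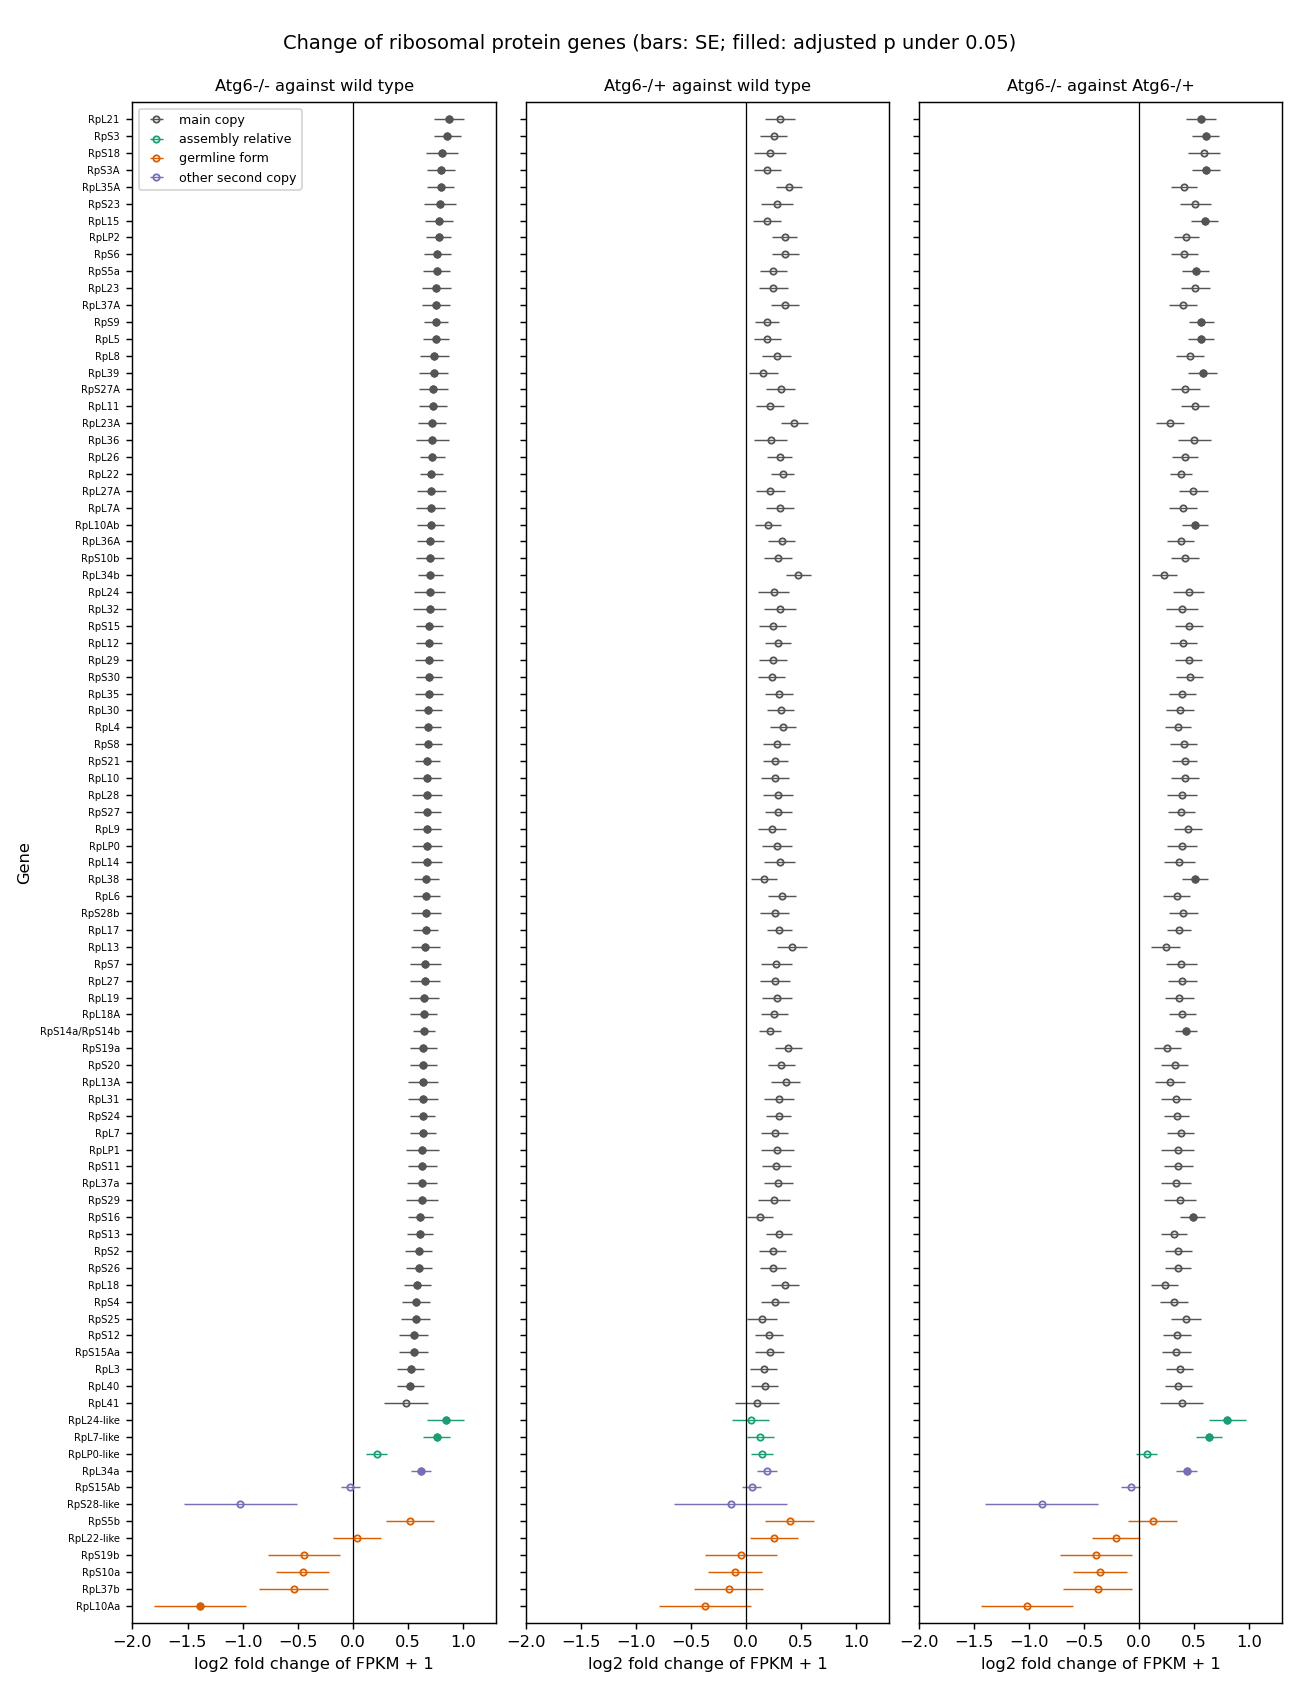
Log2 fold change of FPKM + 1 (horizontal axis) of tested ribosomal protein loci (vertical axis, sorted by the first panel within role) in the 3 comparisons; bars are standard errors and filled points have a limma adjusted p under 0.05. The main copies form a narrow column near 0.68, 0.27 and 0.39. The germline forms at the bottom, other than RpS5b, lie to the left of it in both comparisons of homozygotes. RpS5b lies within the range of the main copies in both comparisons with the wild type, and to the left in homozygotes against heterozygotes.

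The change was of like size on each large chromosome arm. Median log2 fold changes of the main copies in homozygotes against the wild type were 0.68 on 2L (17 genes), 0.69 on 2R (17), 0.68 on 3L (14), 0.67 on 3R (16) and 0.69 on X (13), while medians over all tested loci lay between -0.02 on 3L and 0.04 on X. Across the 78 main copies, Spearman's rho of the fold change was 0.03 with transcript length (288 to 1512 bases) and 0.04 with the mean level; the genes share the same libraries and are not independent.

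Other loci at such levels were more mixed. The 165 other tested loci with a mean at or above that of the lowest main copy (594 FPKM) had a median log2 fold change of 0.31 in homozygotes against the wild type. Of them, 25 (15.2%) were called higher and 12 lower, where 12.3% of all tested loci were called higher and 9.67% lower. In heterozygotes against the wild type the median of the 165 loci, 0.26, was close to that of the main copies, and in homozygotes against heterozygotes it was -0.07. Of these 165 loci, 11 (6.67%) had all 9 libraries in the order homozygote, heterozygote, wild type without overlap, against 2.87% of all tested loci.

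The makeup of the libraries differed between the genotypes. Ribosomal protein loci held 18.9, 24.1 and 17.8% of the FPKM sum in the homozygotes, 13.4, 14.2 and 14.9% in heterozygotes and 15.0, 12.4 and 13.6% in the wild type. As shares of the sum, homozygotes did not overlap with the other genotypes, while heterozygotes and wild type did. Homozygote library 2 held the highest share and also had the lowest FPKM sum of the homozygotes, 779112 against 1072510 and 990224.

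The share of the 10 loci with the highest mean level ran the other way, at 12.4, 9.38 and 16.4% in the homozygotes, 23.6, 23.6 and 22.3% in heterozygotes and 18.7, 24.2 and 22.7% in the wild type. No ribosomal protein gene is among these 10, which include the cuticle genes Lcp4 and Lcp1/Lcp2, the glue gene Sgs7 and the serum protein genes Lsp2 and Lsp1beta. Lsp1beta is listed at 0 in homozygote library 1 and heterozygote library 3. The 8 salivary gland glue genes held 0.384, 3.23 and 2.84% in the homozygotes, 5.18, 6.49 and 5.68% in heterozygotes and 7.42, 6.04 and 9.75% in the wild type. The part of these abundant transcripts in the ribosomal protein result was not tested beyond the scalings. With the sum of all loci but the ribosomal proteins as the scale, the median of the 90 loci was 0.68 with 9 called higher (10%, against 6.11% of all tested loci). With the sum of all loci but the 10 highest it was 0.40 with 4 called higher (4.44%, against 4.82%). The median over all tested loci moved to -0.09 with the FPKM sum, -0.23 without the 10 highest loci and -0.11 with upper-quartile scaling. A single factor per library moves all loci by nearly the same log2 amount. The gap between the median of the 90 loci and that of all tested loci was therefore nearly fixed in advance under such scalings, at 0.63 to 0.66, and is no test of them. Quantile normalization can change the gap, which was then 0.21.

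**Figure D3:**
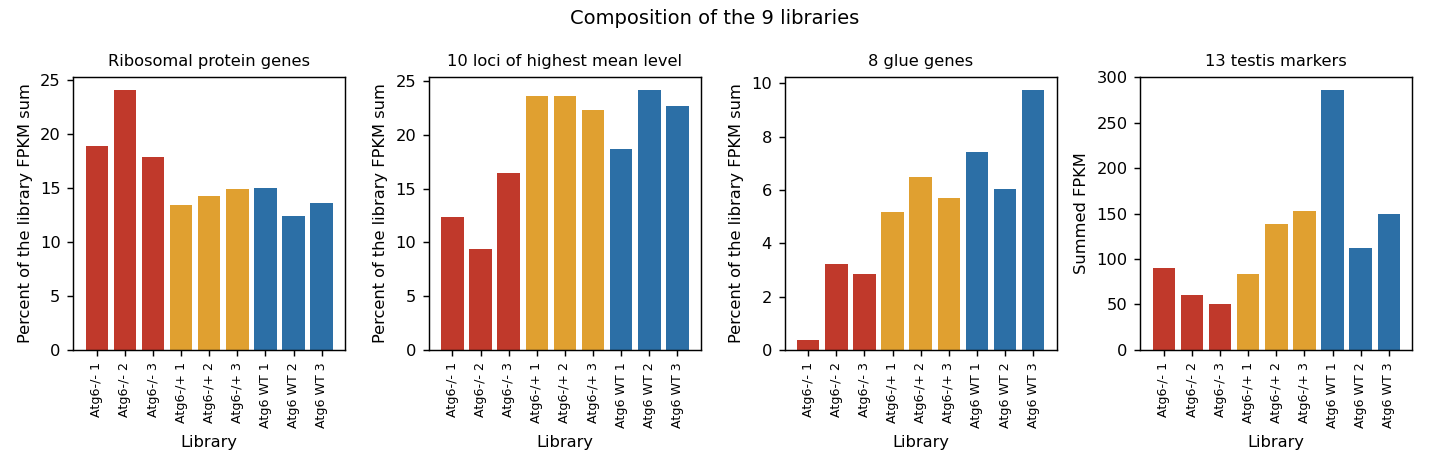
Makeup of each of the 9 libraries, as percent of the library FPKM sum for the ribosomal protein loci, the 10 loci of highest mean level and the 8 glue genes, and as summed FPKM for 13 testis markers; bars start at 0. The Atg6-/- libraries have the highest ribosomal protein share (17.8 to 24.1%) and the lowest shares of the other loci shown as percent.

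**Figure D4:**
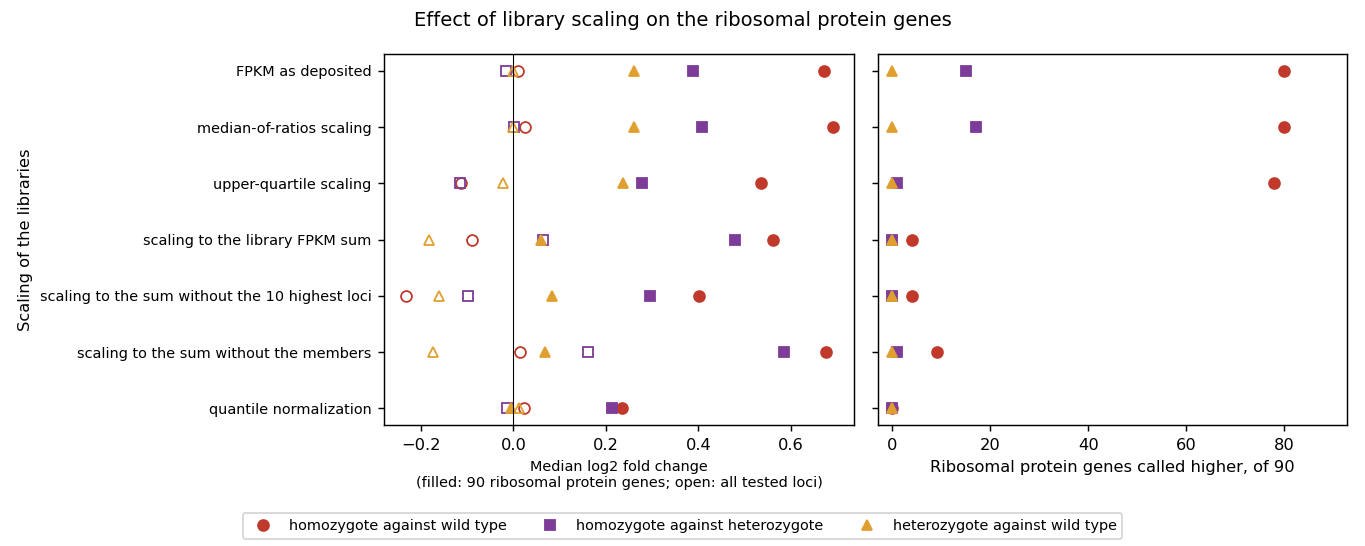
Effect of 7 ways to scale the libraries (vertical axis) on the median log2 fold change (left; filled for the 90 tested ribosomal protein loci, open for all tested loci) and on the number of ribosomal protein loci called higher (right), for the 3 comparisons. The filled points of homozygote against wild type stay right of 0 (0.24 to 0.69), while the calls range between 0 and 80.

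The 13 second copies did not move as a block. Of the 12 that were tested, 3 were called higher and 1 lower in homozygotes against the wild type, where 12.3% of all tested loci were called higher and 9.67% lower, at a median of 0.01, and 6 had a positive and 6 a negative log2 fold change. Of the FPKM sum they held 0.066 to 0.099% in homozygotes, 0.047 to 0.060% in heterozygotes, and 0.045 to 0.071% in wild type. Whether reads were split between near-identical copies is not given in the sources used here, so values of the closest pairs are uncertain.

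The germline forms are RpL10Aa, RpL22-like, RpS5b, RpS10a, RpS19b, RpL37b (current symbol RpL37-2) and RpS28a, second copies known in the fly mainly from testis or ovary. RpL10Aa, on 3R at 15037366 to 15038149 (build dm6), was the only ribosomal protein locus called lower. It had 2.39, 1.25 and 0.906 FPKM in the homozygotes, 2.096, 5.51 and 4.94 FPKM in the heterozygotes and 9.47, 3.09 and 5.07 FPKM in the wild type. Homozygotes and wild type did not overlap, and wild-type library 1 stood well above the others. The log2 fold change was -1.39 (SE 0.42, limma adjusted p 0.0498), next to the threshold, and it was -1.03 (adjusted p 0.130) without wild-type library 1. The call was also lost without wild-type library 3, heterozygote library 2 or 3, or homozygote library 2 or 3. The adjusted p lay between 0.0294 and 0.147 over the fits that left out 1 library. Over all alternative settings it passed in 7 of 22.

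None of the other tested germline forms was called. RpL37b had 11.9, 9.15 and 9.15 FPKM in the homozygotes, 9.03, 12.8 and 20.1 FPKM in the heterozygotes and 21.2, 10.6 and 14.7 FPKM in the wild type, with overlap and a log2 fold change of -0.54 (limma adjusted p 0.231). RpS10a had -0.46 (0.198) and RpS19b -0.44 (0.342), again with overlapping libraries. RpL22-like had 6.76, 8.87 and 7.36 FPKM in the homozygotes, 7.15, 8.77 and 11.5 FPKM in the heterozygotes and 9.25, 5.38 and 8.02 FPKM in the wild type, which overlap throughout (0.04, limma adjusted p 0.902). RpS5b, known mainly from the ovary, had 8.73, 11.4 and 8.94 FPKM in the homozygotes, 6.71, 8.27 and 12.0 FPKM in the heterozygotes and 7.07, 4.91 and 7.56 FPKM in the wild type. Its homozygote libraries were above the wild type without overlap, but the log2 fold change of 0.52 did not pass (limma adjusted p 0.118). RpS28a was at 0 in 6 of the 9 libraries and at most 0.542 FPKM in the others.

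Testis markers were lower in homozygotes as well. All 13 testis markers had homozygote libraries below the wild-type libraries without overlap, against 20.5% of all tested loci, and 6 of the 12 tested were called lower, against 9.67% of all tested loci (median log2 fold change -0.96). Their summed level was 90.5, 60.2 and 50.6 FPKM in the homozygotes, 83.7, 139 and 153 FPKM in the heterozygotes and 286, 112 and 149 FPKM in the wild type, and each was above 0 in all 9 libraries. Wild-type library 1 was highest, as it was for RpL10Aa, RpL37b and RpS10a. The other tested germline forms, RpS19b, RpL22-like and RpS5b, were highest in heterozygote library 3. The 10 general germline markers summed to 106 to 122 FPKM in the homozygotes, 107 to 114 FPKM in the heterozygotes and 92.5 to 111 FPKM in the wild type. Most of these sums came from tud, with means of 82.1, 73.5 and 71.4 FPKM in that order. Of the 7 tested, 0 were called in homozygotes against the wild type, and 1, lower, had an unadjusted p under 0.05. In homozygotes against heterozygotes 1 was called lower (limma adjusted p 0.0421), where 1.42% of all tested loci were. The part of testis RNA in the result for the germline forms was not tested.

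A further 3 second copies are relatives of ribosomal proteins that act in assembly of the large subunit, as known from yeast: RpL24-like (yeast Rlp24), RpL7-like (Rlp7) and RpLP0-like (Mrt4). RpL24-like had 173, 246 and 176 FPKM in the homozygotes, 101, 116 and 120 FPKM in the heterozygotes and 126, 93.9 and 109 FPKM in the wild type. The homozygotes were separate from both other genotypes, which overlapped each other. Its log2 fold change was 0.84 against the wild type (SE 0.17, limma adjusted p 0.0157) and 0.80 against the heterozygotes (limma adjusted p 0.0308), the highest of all ribosomal protein loci in the second of these comparisons.

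RpL7-like, whose locus also carries the name CG34164, showed the same form, with 74.0, 99.4 and 77.7 FPKM in the homozygotes, 50.0, 54.1 and 55.5 FPKM in the heterozygotes and 51.5, 45.4 and 49.1 FPKM in the wild type. Its log2 fold change was 0.76 against the wild type (SE 0.12, limma adjusted p 0.0066) and 0.63 against the heterozygotes (limma adjusted p 0.0209). For both genes homozygote library 2 was the highest. Both calls against the wild type were lost under the 3 FPKM-sum scalings and after quantile normalization, and that of RpL24-like also in the fit of these genotypes alone, with the replicate block and without wild-type library 3 (limma adjusted p 0.0594 without that library). The calls of both genes against the heterozygotes were lost under the same scalings and with upper-quartile scaling. They were also lost in the fit of those 2 genotypes alone, with the replicate block and without any single heterozygote library. For RpL24-like that call was lost in 12 alternative settings. RpLP0-like had 31.5, 29.3 and 28.9 FPKM in the homozygotes, 26.1, 29.1 and 30.1 FPKM in the heterozygotes and 28.6, 24.7 and 23.7 FPKM in the wild type. It was separate between homozygotes and wild type by a narrow margin and was not called (0.22, limma adjusted p 0.128).

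Of the remaining second copies, RpL34a had a change within the range of the main copies, with 322, 301 and 297 FPKM in the homozygotes, 239, 209 and 235 FPKM in the heterozygotes and 198, 205 and 194 FPKM in the wild type. It was called higher against both other genotypes, with a log2 fold change of 0.62 against the wild type (SE 0.091, limma adjusted p 0.0047) and 0.43 against the heterozygotes (limma adjusted p 0.0308). Both calls of RpL34a were lost under the FPKM-sum scalings and after quantile normalization. The call against the heterozygotes was also lost in the fit of these genotypes alone, with the replicate block and without any single heterozygote library, among other settings. RpS15Ab was level across the study at 59.4, 51.2 and 53.7 FPKM in the homozygotes, 59.9, 57.8 and 55.7 FPKM in the heterozygotes and 53.4, 59.4 and 54.1 FPKM in the wild type, all of which overlap (-0.02, SE 0.086, limma adjusted p 0.854 in homozygotes against the wild type). RpS28-like, whose locus also carries the name CG3769, had 0.244, 0.104 and 0.186 FPKM in the homozygotes, 0.766, 1.85 and 1.04 FPKM in the heterozygotes and 4.85, 0.285 and 0.820 FPKM in the wild type. Its log2 fold change of -1.02 was not called (limma adjusted p 0.171), and wild-type library 1 was again the highest. Homozygotes and wild type did not overlap, by a narrow margin between 0.244 FPKM in homozygote library 1 and 0.285 FPKM in wild-type library 2.

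The ratio of a second copy to its main copy within a library does not depend on the scaling of that library. In homozygotes against the wild type, 12 of 13 pairs could be tested; 9 ratios were lower without overlap, 0 were higher, and RpS5b, RpL7-like and RpL24-like overlapped. With 3 libraries against 3 an exact two-sided permutation test cannot go below 0.1, the value that all 9 reached, so no ratio can pass 0.05. The main copies were themselves higher, so a ratio can fall without a fall of the second copy. Among the 9, RpL34a (log2 fold change 0.62), RpLP0-like (0.22) and RpL22-like (0.04) were not lower in level, and RpS15Ab was level (-0.02). The others were RpL10Aa, RpS10a, RpS19b, RpL37b and RpS28-like, all with negative log2 fold changes, of which only RpL10Aa was called. The same count over pairs of other loci was not made. RpL10Aa was 0.143, 0.0706 and 0.0578% of RpL10Ab, its main copy and a protein of the L1 stalk, in the homozygotes, 0.176, 0.513 and 0.394% in heterozygotes and 0.913, 0.287 and 0.531% in the wild type. The log2 ratio in homozygotes minus that in the wild type was -2.63 (SE 0.62).

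RpS15Ab, level in FPKM, was 2.67, 2.44 and 2.65% of RpS15Aa in the homozygotes, 3.44, 3.51 and 3.41% in heterozygotes and 4.14, 3.63 and 3.81% in the wild type. These ratios were separate between all 3 genotypes, with the homozygotes lowest. RpL34a was 29.2, 29.8 and 30.9% of RpL34b in the homozygotes, 25.5, 25.8 and 26.8% in heterozygotes and 33.0, 30.9 and 31.1% in the wild type. Here the heterozygotes were lowest and the homozygotes reached up to the edge of the wild type (log2 ratio -0.08 in homozygotes minus wild type). RpL24-like was 9.94, 17.7 and 13.5% of RpL24 in the homozygotes, 9.28, 11.2 and 10.9% in heterozygotes and 15.0, 9.85 and 11.8% in the wild type, which overlap. In heterozygotes against the wild type 2 ratios were separate, RpS15Ab and RpL34a, both lower. In homozygotes against heterozygotes 6 were lower and 1, RpL34a, was higher. Each of these also had the smallest possible exact permutation p of 0.1.

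**Figure D5:**
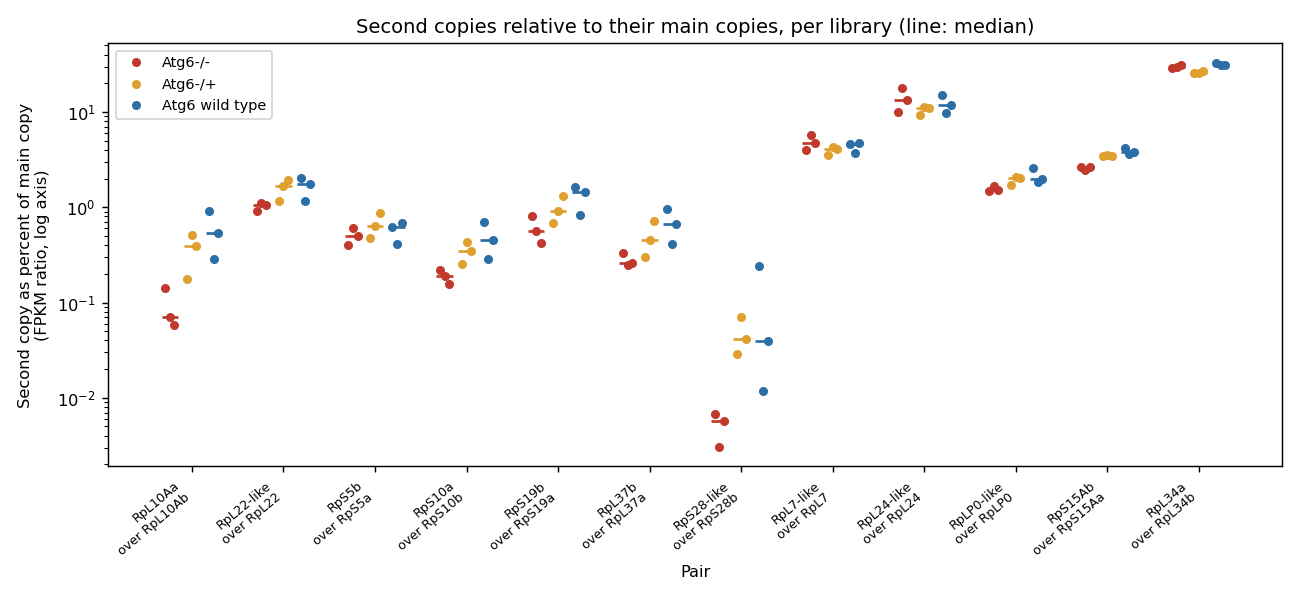
Level of each second copy as percent of its main copy (vertical log axis, ratio of FPKM) for 12 pairs, with points for the 9 libraries, coloured by genotype with Atg6-/- left, and lines at the medians. The 3 Atg6-/- points lie below the 3 wild-type points in 9 of the 12 pairs.

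Genes that act with the ribosome were counted in lists written from general knowledge, in homozygotes against the wild type. Over all tested loci, 12.3% were called higher and 9.67% lower. Of 9 tested translation elongation genes, 5 were called higher and 0 lower (median log2 fold change 0.55), and 1, Ef1alpha100E at -0.67, singled out after its value was seen, had a negative change with an unadjusted p under 0.05. EF2, which moves the ribosome along the mRNA, had 2250, 2243 and 2245 FPKM in the homozygotes, 1676, 1468 and 1641 FPKM in the heterozygotes and 1232, 1396 and 1285 FPKM in the wild type, which are separate between the genotypes, and a log2 fold change of 0.79 (SE 0.12, limma adjusted p 0.0053). Ef1beta and Ef1gamma, parts of the exchange factor for the tRNA-carrying elongation factor, had 0.72 (0.0057) and 0.73 (0.0080).

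Of 18 tested translation initiation genes, 11 were called higher and 0 lower (median 0.48). They were led by subunits of initiation factor 3: eIF-3p66 had 215, 240 and 213 FPKM in the homozygotes, 136, 120 and 132 FPKM in the heterozygotes and 99.97, 104 and 109 FPKM in the wild type, with a log2 fold change of 1.09 (SE 0.092, limma adjusted p 0.00040). eIF3-S8 had 0.78 (0.0026) and Int6 0.66 (0.0027). The small-subunit genes outside the naming pattern were called higher too, Rack1 at 0.70 (limma adjusted p 0.0089) and sta at 0.51 (0.0332). The call was lost in 5 alternative settings for Rack1 and 14 for sta.

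Of 25 ribosome biogenesis factors, 3 were called higher and 0 lower (median 0.13), a share near the 12.3% of all tested loci called higher. Non1, a GTPase of large-subunit assembly, had 388, 549 and 430 FPKM in the homozygotes, 220, 227 and 254 FPKM in the heterozygotes and 220, 197 and 211 FPKM in the wild type, with a log2 fold change of 1.105 (SE 0.14, limma adjusted p 0.00245). The heterozygotes lay just above the wild type, and homozygote library 2 was the highest, as for RpL24-like and RpL7-like. Ns2, a nucleolar GTPase, had 0.45 (0.0260) and the helicase pit 0.30 (0.0348). The call was lost in 10 alternative settings for Ns2 and 16 for pit. Of 73 mitochondrial ribosomal protein genes, 8 were called higher and 0 lower (median 0.26), a share just under the 12.3% of all tested loci, led by mRpL39 at 0.73 (0.0072). Of 10 regulators of growth and ribosome synthesis, 3 were called higher and 0 lower (median 0.11): S6k, the kinase of RpS6, at 0.66 (0.0133), Max, the partner of Myc, at 0.45 (0.0189) and the TOR subunit raptor, whose locus also carries Mipp2, at 0.27 (0.0298). The call was lost in 4 alternative settings for S6k, 7 for Max and 12 for raptor. In heterozygotes against the wild type 0 genes of these 5 lists were called by limma, and an unadjusted p under 0.05 was found for 2 elongation genes and 1 gene each of the initiation, mitochondrial and growth lists, all higher. Over all 10887 tested loci, 369 were higher at that unadjusted p. In homozygotes against heterozygotes 9 of 18 initiation genes, 2 of 9 elongation genes, 3 of 73 mitochondrial genes, 1 of 25 biogenesis genes and 0 of 10 growth regulators were called higher, the last with 3 at an unadjusted p under 0.05, and 0 genes of the lists were called lower. Over all tested loci 6.27% were called higher in that comparison, and the mitochondrial, biogenesis and growth lists lay below that share. At an unadjusted limma p under 0.05, 1616 of the 10887 tested loci were higher.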

How the data were processed

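Total RNA of 9 whole-larva libraries was sequenced as paired reads of 75 bases, per the labels. The authors deposited FPKM per locus and library; per the submitters' processing notes the tools were HISAT2 2.1.0 and Cufflinks 2.2.1 besides limma, with build dm6, and the annotation is not given in the sources used here. The deposited table had 50244 lines for 15809 loci, each name 3 times with identical values, and 1 line per locus was kept. The 91 members were matched by symbol and place to the BDGP6 annotation of Ensembl release 115, used for transcript length and current symbols. Starts are given counted from 1.

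Loci at 1 FPKM or more in at least 3 libraries (10887) entered the test, on log2(FPKM + 1), with limma 3.58.1 in R 4.3.3 (lmFit, contrasts.fit, eBayes with trend), all 3 genotypes fitted together, Benjamini-Hochberg adjustment over the tested loci, threshold 0.05. The steps were tested on simulated data. Ratios of second to main copies were compared by exact two-sided permutation. The members, the division into main and second copies, and the gene lists were chosen with earlier results of these data known. All members could be named, and the values of 1 are not reported here; those described in full were the paralog pairs, the stalk and fusion genes, the 3 members with the highest and the 3 with the lowest fold change per comparison among those averaging at least 100 FPKM, members called against the majority, and the most and least abundant. Of each list, up to 3 genes per direction with the smallest adjusted p were eligible. Alternatives were pseudocounts of 0.1 and 5, other filters, 6 other scalings, pairwise fits, a replicate block, loci with a single gene name, and leaving out each library. Loci with several gene names (10 members) hold reads of each. FPKM gives no counts, so no counting interval is given.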

Additional observations from a re-analysis of the deposited data

How the results depend on the processing

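As deposited, 80 of the 90 ribosomal protein loci were called higher in homozygotes against the wild type and 15 in homozygotes against heterozygotes. For homozygotes against the wild type, the number called was 4 and the median log2 fold change 0.56 with the FPKM sum as the scale, 4 and 0.40 with the sum without the 10 highest loci, 9 called with the sum without the ribosomal proteins, a median of 0.54 with upper-quartile scaling, and 0 and 0.24 after quantile normalization. Over all tested loci, 5.27%, 4.82% and 6.11% were called higher under the 3 sum scalings, in that order, and 9.80% after quantile normalization. The fit of 2 genotypes alone called 19 (21.1%, against 5.05% of all tested loci). Leaving out each library in turn gave 29 to 80. For heterozygotes against the wild type, with 0 called in each setting, the median was 0.060, 0.084 and 0.069 under the 3 sum scalings and -0.0049 after quantile normalization. For homozygotes against heterozygotes, 4 were called with no filter, 29 with a filter of 5 FPKM, 0 in the fit of 2 genotypes, 0 at a median of 0.48 with the FPKM sum, 0 at 0.30 without the 10 highest loci, 1 at 0.59 without the ribosomal proteins, 1 at 0.28 with upper-quartile scaling and 0 at 0.21 after quantile normalization; leaving out a library gave 0 to 12. Of all tested loci, 3.78% were called higher in that comparison with the FPKM sum and 2.69% without the 10 highest loci. The share was 4.31% without the ribosomal proteins, 3.64% with upper-quartile scaling and 4.12% after quantile normalization. It was 4.16% with no filter and 8.73% with a filter of 5 FPKM. Over all loci, 1343 were higher and 1053 lower in homozygotes against the wild type, against 525 and 1205 without the 10 highest loci and 931 and 1507 with upper-quartile scaling. The cause was not tested.

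The replicate numbers are shared by the genotypes. Same-numbered libraries did not deviate together as a set (correlations -0.65 to 0.33, median -0.16). Libraries of different number had correlations of -0.48 to 0.67 (median 0.13). With 3 libraries per genotype these values cannot decide whether the numbers mark a shared batch, and the main fit used no pairing. With the replicate number as a block, 39 of the 90 loci (43.3%) were called higher in homozygotes against the wild type, against 6.89% of all tested loci. In homozygotes against heterozygotes 0 were, against 3.41%.

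Of the alternative values for single named genes, 300 kept their direction and lost the call, 24 reversed, and the rest kept both. The reversed values were small changes. In homozygotes against the wild type, RpL22-like was at -0.061 with the FPKM sum, -0.201 without the 10 highest loci, -0.081 with upper-quartile scaling, and between -0.16 and 0.18 on leaving out a library; RpLP0-like was at -0.047 without the 10 highest loci; RpS15Ab was between -0.083 and 0.023 on leaving out a library; tud was at -0.065 without the 10 highest loci and -0.0066 after quantile normalization. In heterozygotes against the wild type, with the FPKM sum, without the 10 highest loci, without the ribosomal proteins and after quantile normalization, RpL24-like was at -0.16, -0.13, -0.15 and -0.088, RpL41 at -0.10, -0.079, -0.094 and -0.13, and RpS16 at -0.073, -0.049, -0.064 and -0.14. On leaving out a library RpL24-like lay between -0.062 and 0.15. The log2 ratio of RpL24-like to RpL24 in homozygotes minus wild type lay between -0.055 and 0.36 on leaving out a library, and was below 0 without homozygote library 2. Depth is unknown, which limits statements on loci near 1 FPKM, such as RpL10Aa, RpS28-like and RpS28a.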

Other observations

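Salivary gland and fat body genes lie outside the ribosomal protein loci but are part of the FPKM sums used as scales. Their median changes in homozygotes against the wild type were farther from 0 than those of the other lists. Of 8 glue genes 2 were called lower in homozygotes against the wild type, where 9.67% of all tested loci were, at a median log2 fold change of -2.37. CG7587 had 27.8, 237 and 303 FPKM in the homozygotes, 963, 970 and 685 FPKM in the heterozygotes and 2228, 2838 and 3782 FPKM in the wild type, 3 levels without overlap, with a limma adjusted p of 0.0097. Of 5 tested larval serum and fat body genes 1 was called lower (median -1.07). Fbp1, a receptor for larval serum proteins in the fat body, had 25.0, 871 and 1608 FPKM in the homozygotes, 5448, 5812 and 6886 FPKM in the heterozygotes and 6548, 7292 and 7758 FPKM in the wild type (log2 fold change -4.44, SE 1.34, limma adjusted p 0.0496). That call was lost in 14 of 22 alternatives, among them leaving out any single wild-type or heterozygote library (adjusted p up to 0.117), and the log2 fold change was -2.60 without homozygote library 1. Homozygote library 1 was lowest for both genes and for the share of the glue genes, while for the ribosomal protein share homozygote library 2 stood apart from the others.

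Variation between libraries of 1 genotype was small for the main copies. The median coefficient of variation was 6.89% in the homozygotes, 4.84% in the heterozygotes and 7.50% in the wild type, and it was under 10% for 68, 78 and 62 of the 78 genes. The highest was 20.7%, that of RpL41 in the homozygotes.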
